A study of Mus musculus with 2 samples.

Results

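The Cxcl3 inflammatory phagocytes of injured mouse muscle were taken here as 2802 of the 48848 cell barcodes in 2 droplet-based scRNA-Seq libraries, 883 of 23779 in the IgG library and 1919 of 25069 in the SPP1-nAb library. A barcode was a member when over 200 genes were detected, when under 10% of its unique molecular identifiers (UMIs) were mitochondrial, and when it had a UMI of at least 2 of the 4 macrophage genes *Csf1r*, *Cd68*, *Adgre1* and *Lyz2*, and a UMI of at least 4 of 8 further genes, of which the 7 described here are *Cxcl3*, *Il1a*, *Olr1*, *Inhba*, *Thbs1*, *Hilpda* and *Flrt3*. Barcodes with 4 or more of the 6 lipid-handling genes *Gpnmb*, *Fabp5*, *Atp6v0d2*, *Syngr1*, *Rnf128* and *Trem2*, or with 3 or more of the 4 neutrophil genes *S100a8*, *S100a9*, *Retnlg* and *Cxcr2*, were left out. *Spp1* was not used to choose the cells. Because the 8 genes were picked from these data, their levels in the members describe the choice and were not tested.

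Both libraries came from male mice, labelled C57BL/6J and aged 10 to 16 weeks, whose peroneal nerves were injured on both sides. The tibialis anterior (TA) muscle then received 2 μg of goat anti-mouse IgG or 2 μg of the SPP1 neutralizing antibody AF808 in 10 μL every 2 days, and muscle was taken at 7 dpi. The study's methods state that mice were pooled and describe mice carrying the S100GFP reporter and sorting of live GFP+ and GFP- cells, whereas the titles of the deposited samples name GFP-positive cells only and the labels name TA and GTN muscles. Each condition had 1 library and there was no uninjured muscle, so no difference between the conditions has a replicate check, no test was made, and an effect of the antibody, the mice or the library preparation cannot be told apart.

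Macrophages that enter injured tissue as monocytes can take up an inflammatory state in which they secrete chemokines that attract neutrophils and further monocytes, release interleukin 1 and shift their energy metabolism to glycolysis. In tissue short of oxygen such cells also induce genes for lipid droplets and for the growth of vessels. SPP1, or osteopontin, is a secreted phosphoprotein that binds CD44 and integrins and is made by several kinds of tissue macrophage after injury.

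The members were deeply sequenced for these libraries. IgG members had 5510007 UMIs in all and a median of 5758 per cell, against 4135 in all other phagocytes. SPP1-nAb members had 13313479 UMIs and a median of 6436, against 5118 in all other phagocytes. Levels below are therefore given as CPM, the UMIs of a gene summed over the cells of a group per 1000000 UMIs of those cells. Intervals are exact 95% intervals, binomial (Clopper-Pearson) for shares, Poisson for levels and conditional binomial for ratios. The interval of a difference of shares combines the limits of both share intervals and is approximate. All intervals cover counting error only. Ratios between libraries are log2 values of SPP1-nAb over IgG.

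The label was checked against markers of other cells. The members had a median of 3 of the 4 macrophage genes in both libraries, but the gate itself required 2 and limited the neutrophil genes, so neither bears on the label. The median number of detected genes was 0 for each of the 11 lists of other cell types, from neutrophils and lymphocytes to endothelial, Schwann and muscle cells. Single such genes were not rare. At least 1 neutrophil gene had a UMI in 31.4% of IgG and 34.8% of SPP1-nAb members, at least 1 mesenchymal gene in 28.5% and 27.5%, and at least 1 endothelial gene in 9.97% and 8.03%. At least 3 of 6 mesenchymal genes were detected in 3.85% of IgG and 2.34% of SPP1-nAb members, where the list summed to 977 and 719.6 CPM with *Dcn* as its most abundant gene. T and NK genes summed to 0.363 and 1.13 CPM, with *Cd3e*, *Trbc2* and *Nkg7* at 0 in both libraries. The matrices shared 163 barcode sequences, of which 19 belonged to a member in at least 1 library and 0 to a member in both. The gate is a threshold on a range. Exactly 4 of the 8 genes were found in 462 IgG members (52.3%) and 1032 SPP1-nAb members (53.8%), while 772 and 1738 phagocytes just outside had 3. A further 231 and 893 barcodes had 4 of the 8 genes but also 4 of the lipid-handling genes, and 210 and 533 members were just inside that limit with 3.

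The 8 genes did not mark a uniform cell. Members carried 122 different combinations of them in the IgG library and 139 in the SPP1-nAb library. The most common was found in 67 IgG members (7.59%) and 137 SPP1-nAb members (7.14%). *Cxcl3* and *Thbs1* were detected together in 58.9% and 59.6% of the members, and *Thbs1* and *Hilpda* in 57.6% and 56.1%. All 8 genes were detected in 5 IgG and 13 SPP1-nAb members.

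*Cxcl3* (ENSMUSG00000029379, chromosome 5 of GRCm39, 90933962 to 90937459), a chemokine that attracts neutrophils, was at 1117 CPM (1089 to 1145) in IgG members and 890.2 CPM (874 to 906) in SPP1-nAb members, a log2 ratio of -0.33. It was detected in 63.1% and 63.4% of the members, and in 51.6% and 47.7% after each cell was thinned to 2000 UMIs. *Il1a* (ENSMUSG00000027399, chromosome 2, 129140291 to 129152098), an interleukin 1 released by stressed or dying cells, was at 194 CPM and 131 CPM, a log2 ratio of -0.56. As genes of the gate, both describe the choice of cells in each library. In the cells that passed both gates, chosen on the same genes, *Cxcl3* was at 925 and 618 CPM and *Il1a* at 157 and 118 CPM, and in the remaining phagocytes *Cxcl3* was at 54.4 and 73.8 CPM and *Il1a* at 18.1 and 19.6 CPM.

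The matricellular gene *Thbs1* (ENSMUSG00000040152, chromosome 2, 117941974 to 117957616), whose product thrombospondin 1 activates latent TGF-β, was found in nearly every member, in 93.8% of IgG and 93.7% of SPP1-nAb members. Its level was 1762 CPM (1727 to 1797) and 2122 CPM (2097 to 2146), a log2 ratio of 0.27. It was also the least selective of the 8 genes, since 30.1% and 48.9% of all other phagocytes had a UMI. *Inhba* (ENSMUSG00000041324, chromosome 13, 16186373 to 16206206), the subunit of activin A, was at the other end and was detected in 24.7% and 21.2% of the members, at 198 CPM and 162 CPM. The 10 cells with the most *Inhba* held 31.4% of its UMIs in IgG members and 20.2% in SPP1-nAb members.

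*Olr1* (ENSMUSG00000030162, chromosome 6, 129462207 to 129484128), a scavenger receptor for oxidized lipoprotein, was at 295 CPM in IgG members and 228 CPM in SPP1-nAb members, a log2 ratio of -0.37. *Hilpda* (ENSMUSG00000043421, chromosome 6, 29272409 to 29276301), a hypoxia-induced protein of lipid droplets, was at 289 CPM and 247 CPM, a log2 ratio of -0.23. *Flrt3* (ENSMUSG00000051379, chromosome 2, 140492834 to 140513396), an adhesion protein that binds latrophilins and Unc5 receptors, was at 178 CPM and 229.8 CPM, a log2 ratio of 0.37. Of these 7 genes, *Thbs1* and *Flrt3* were therefore higher and the other 5 lower in the SPP1-nAb members, and no ratio reached 1.5-fold.

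The gate was also applied to barcodes of other cell types. Of endothelial barcodes, 0 of 490 and 0 of 386 had 4 of the 8 genes, which allows a share of up to 0.750% and 0.951% (upper limits of the exact interval), at median depths of 1511.5 and 1638 UMIs. Of T and NK barcodes, 0 of 46 and 0 of 68 did, which allows up to 7.71% and 5.28%, at medians of 3246 and 4573 UMIs. Single genes were still seen there. *Cxcl3* had a UMI in 0.816% and 1.55% of endothelial and in 2.17% and 1.47% of T and NK barcodes, and *Thbs1* in 12.2% and 15.8% of endothelial barcodes. Endothelial barcodes held *Thbs1* at 189 and 217 CPM and *Inhba* at 30.4 and 14.3 CPM, and whether these came from free RNA, mixed barcodes or the cells themselves was not tested.

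**Figure D1:**
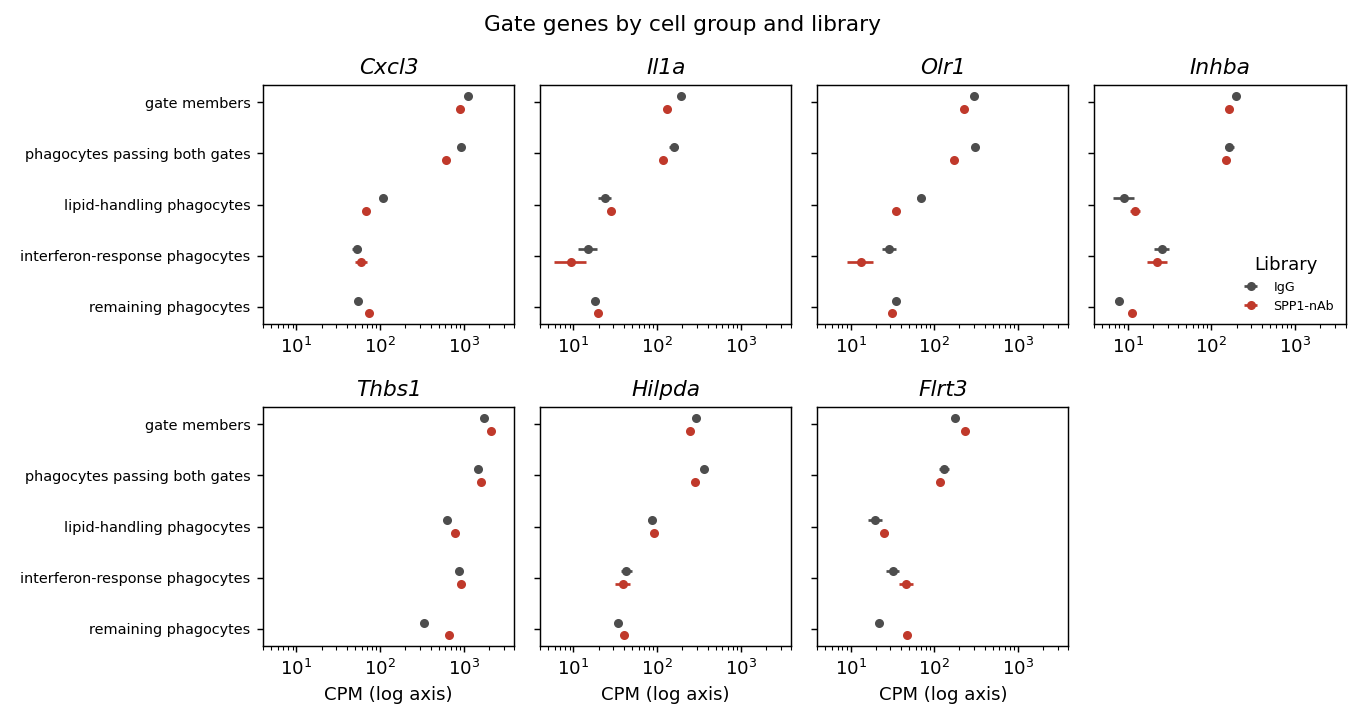
Levels of 7 gate genes (CPM on a log axis) in 5 groups of phagocytes, with IgG in gray and SPP1-nAb in red and bars for the exact 95% Poisson interval. Members are at 1117 and 890.2 CPM of *Cxcl3*, and all other phagocytes together were at 85.2 and 123 CPM.

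For *Cxcl3* and *Hilpda* the sequence before the start site is shown because both belong to the gate and hold a short motif of the hypoxia pathway, with an NF-κB motif in *Cxcl3* only. The 250 bases before the start were read from RefSeq (GRCm38.p6), 5′ to 3′ on the strand of the gene. Capitals mark exact matches, on either strand, to ACGTG (the core of the hypoxia response element), GGGA and TTTCC with any 1 base between (NF-κB) and TGANTCA (AP-1). ACGTG was found in 16.6% of the 32851 promoters of the same length, TGANTCA in 6.75% and the NF-κB motif in 0.356%. *Cxcl3* held an NF-κB match whose first base was 73 bases before the start, and its pair of ACGTG matches overlap on opposite strands. *Hilpda* is shown for the second of its listed start sites, since the first held none of these motifs. Of the gate genes, 6 had a promoter in the table, and by the first listed start 2 held an AP-1 match and 1 each an NF-κB and an ACGTG match. A match is a description of letters and not evidence of a bound factor.
Cxcl3, chr5:90785851-90786100, plus strand: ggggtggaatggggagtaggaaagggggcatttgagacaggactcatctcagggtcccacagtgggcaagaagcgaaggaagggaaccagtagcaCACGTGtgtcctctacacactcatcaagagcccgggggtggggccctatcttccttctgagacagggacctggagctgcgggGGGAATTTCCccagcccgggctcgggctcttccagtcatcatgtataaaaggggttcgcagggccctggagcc
Hilpda, chr6:29272376-29272625, plus strand: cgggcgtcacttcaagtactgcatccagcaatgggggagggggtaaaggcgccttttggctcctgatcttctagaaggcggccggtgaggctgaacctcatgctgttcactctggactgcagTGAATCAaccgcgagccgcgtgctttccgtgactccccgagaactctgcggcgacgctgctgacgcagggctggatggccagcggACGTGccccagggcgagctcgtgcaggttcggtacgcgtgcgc

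The members made up a larger part of the SPP1-nAb library. They were 883 of 13914 mononuclear phagocytes in the IgG library, or 6.35% (5.95 to 6.76), and 1919 of 17608 in the SPP1-nAb library, or 10.9% (10.4 to 11.4), a difference of 4.55 percentage points (3.93 to 5.17). Of all barcodes that passed the filters they were 3.78% (3.54 to 4.03) and 7.75% (7.42 to 8.09). A gate on detected genes admits more cells at greater depth, and the SPP1-nAb library was deeper. After every phagocyte was thinned to 2000 UMIs, the shares were 3.36% (3.03 to 3.71) and 5.93% (5.54 to 6.33), a difference of 2.57 percentage points, with 863 and 871 shallower phagocytes left out and the macrophage genes required again. At 4000 UMIs they were 8.47% (7.84 to 9.12) and 11.3% (10.8 to 11.9), a difference of 2.88 percentage points, with 6163 and 4555 left out. The share in the SPP1-nAb library was thus also the larger at equal depth, with a ratio of 1.76 at 2000 and 1.34 at 4000 UMIs. The intervals count cells within 1 library each and say nothing of the spread between muscles. Cells that also passed the lipid-handling gate, and so were not counted as members, were 1.66% and 5.03% of the phagocytes. The sorted mixture loaded per library is not given in the sources used here, so the shares are those of the sequenced cells.

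**Figure D2:**
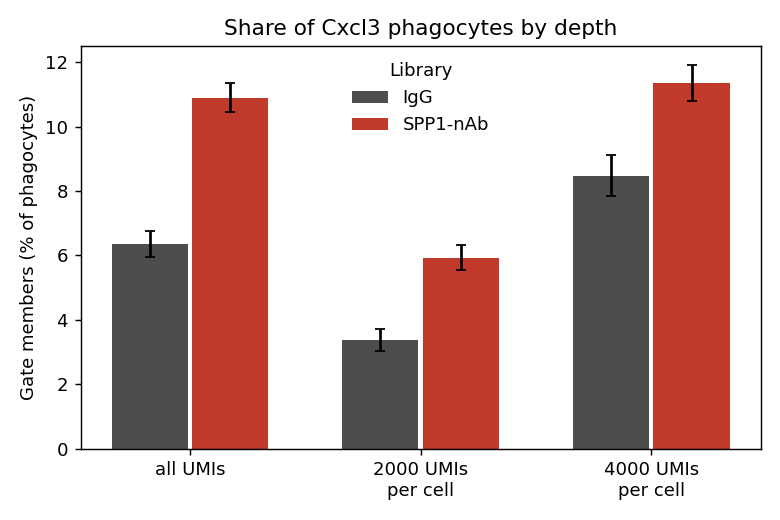
Share of members among mononuclear phagocytes (percent, bars from 0) in the IgG (gray) and SPP1-nAb (red) libraries with all UMIs and after thinning to 2000 or 4000 UMIs per cell, with exact 95% binomial intervals. The SPP1-nAb bar is the taller at each depth, at 10.9%, 5.93% and 11.3% against 6.35%, 3.36% and 8.47%.

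*Spp1* (ENSMUSG00000029304, chromosome 5, 104582165 to 104589235) went the opposite way in the members and in the rest of the phagocytes. IgG members had 11497 *Spp1* UMIs, or 2087 CPM (2049 to 2125), and SPP1-nAb members had 19873, or 1493 CPM (1472 to 1514), a log2 ratio of -0.48 (-0.52 to -0.45). All other phagocytes were at 629 CPM (623 to 636) and 1057 CPM (1050.5 to 1064), a log2 ratio of 0.75. Members were above the other phagocytes in both libraries, by 1.73 on the log2 scale in the IgG library and by 0.50 in the SPP1-nAb library. The latter was 0.052 with at least 3 of the gate genes and 1.84 after thinning to 2000 UMIs, so its size is not settled.

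The other phagocytes are a mixture, and their subgroups differed. Phagocytes that passed only the lipid-handling gate were at 2554 and 2333 CPM, a log2 ratio of -0.13, and those that passed both gates had the highest *Spp1*, at 4526 CPM (4425 to 4628) and 4482 CPM (4435 to 4530). Interferon-response phagocytes were at 726 and 588 CPM and the remaining phagocytes at 259.7 and 300.1 CPM. *Spp1* was thus lower or nearly level in the SPP1-nAb library in each of these groups but the remaining phagocytes. The lipid-handling cells were 6.14% and 12.7% of the phagocytes. Whether their share bears on the ratio in all other phagocytes was not tested. With a gate that left out no cells for lipid-handling or neutrophil genes, the log2 ratio of *Spp1* in members was -0.04 in place of -0.48. It was -0.09 with all cells thinned to 2000 UMIs before the gate. The lower *Spp1* of the SPP1-nAb members therefore kept its direction but not its size.

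**Figure D3:**
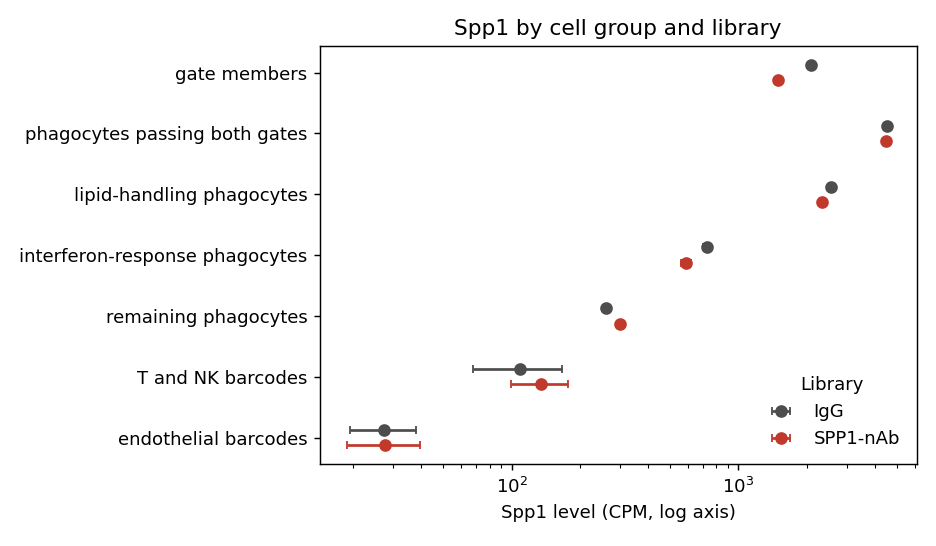
*Spp1* level (CPM on a log axis) in 5 groups of phagocytes and in T and NK and endothelial barcodes, IgG in gray and SPP1-nAb in red, with exact 95% Poisson intervals. Members stand at 2087 and 1493 CPM, below the cells that passed both gates and far above the endothelial barcodes at 27.5 and 27.7 CPM.

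*Spp1* was mostly higher in cells with more gate genes, although it was not among them. In the IgG library its level was 71.5 CPM in phagocytes with 0 of the 8 genes, 988 CPM with 3, 1963 CPM with 4, 1851 CPM with 5, 2772 CPM with 6 and 2958 CPM with 7. In the SPP1-nAb library the same steps were at 97.7, 719, 1142, 1419, 2242 and 3427 CPM. IgG was the higher from 1 to 6 genes, and SPP1-nAb at 0, 7 and 8 genes, where 7 genes were found in 45 IgG and 76 SPP1-nAb cells. This order depended on depth. With cells thinned to 2000 UMIs, IgG was the higher at 4 genes, at 3162 against 2625 CPM, but SPP1-nAb at 3 genes, at 1896.5 against 1689 CPM, and at 6, at 5914 against 4811 CPM. The 5 IgG cells with all 8 genes were at 1457 CPM and the 13 SPP1-nAb cells at 4714 CPM. Cells with 4 lipid-handling or 3 neutrophil genes were left out at every number. Cells with more detected genes were also deeper, with medians from 3650 UMIs at 0 genes to 8859 at 8 in the IgG library. When both libraries were given the same mix of detected numbers, the log2 ratio of *Spp1* in members was again -0.48.

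**Figure D4:**
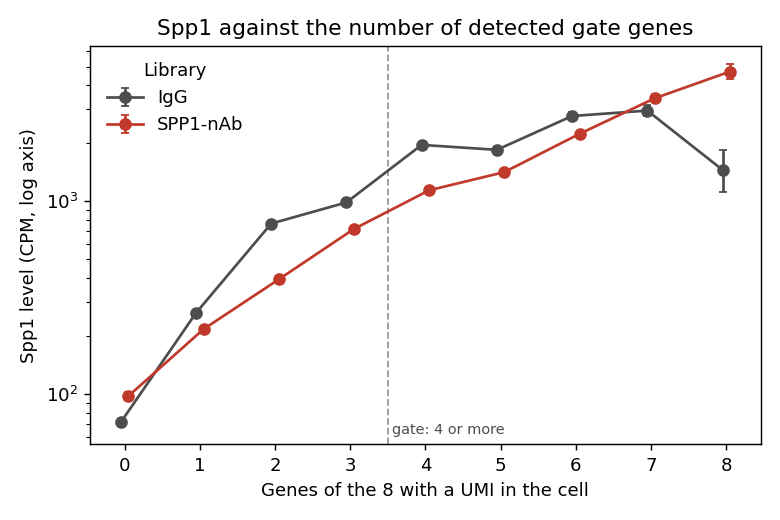
*Spp1* level (CPM on a log axis) against how many of the 8 gate genes had a UMI in phagocytes without 4 lipid-handling or 3 neutrophil genes, for IgG (gray) and SPP1-nAb (red) with exact 95% Poisson intervals. The level is 71.5 and 97.7 CPM at 0 genes and 2958 and 3427 CPM at 7.

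Within the members *Spp1* was concentrated in few cells. A UMI was found in 562 of 883 IgG members (63.6%) and 1119 of 1919 SPP1-nAb members (58.3%), and in 50.7% and 45.1% after thinning to 2000 UMIs. A UMI was seen in 9 of 46 and 17 of 68 T and NK barcodes, and in the endothelial barcodes the shares were 3.27% and 6.48%. The source of these UMIs was not tested. The tenth of members with the most *Spp1* held 65.3% of its UMIs in the IgG library and 67.1% in the SPP1-nAb library, and the highest cells had 421 and 779 UMIs. Members split by single gate genes differed in *Spp1*, within a choice already made on those genes. *Spp1* was higher with *Inhba* than without it, at 2559.8 against 1930.1 CPM in the IgG library and 2164 against 1318 CPM in the SPP1-nAb library, and it was also higher with *Olr1* and with *Hilpda* in both libraries. It was lower with *Flrt3*, at 1644 against 2547 CPM and 1317 against 1785 CPM, and the direction differed between the libraries for *Cxcl3*, *Il1a* and *Thbs1*.

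The S100GFP reporter, *Gfp*, known for marking Schwann cells, was read in the members as well. It was at 329 CPM (314 to 345) and 374 CPM (364 to 385), against 220.2 and 270.4 CPM in all other phagocytes. Endothelial barcodes were at 45.3 and 26.8 CPM. Why phagocytes carried *Gfp* was not tested.

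Against all other phagocytes, 7108 genes with at least 200 UMIs in members and 20 members with a UMI were examined for higher levels. Of these, 50 (0.703%) were at least 2-fold higher in both libraries. At least 2-fold lower in both were 527 of 12070 genes (4.37%), a set that included genes below these counts in members. The shares of 0.703% and 4.37% are therefore of different sets. Members were chosen on such a difference, so the genes describe the gate and support nothing. *Areg*, an EGF-family ligand, was at 154 and 139 CPM in members against 26.4 and 27.7 CPM in other phagocytes. The chemokines *Ppbp*, at 97.5 and 73.8 CPM against 18.9 and 18.2, and *Cxcl1*, at 928 and 940.5 CPM against 351 and 364, act on neutrophils. *Ptgs2*, the inducible cyclooxygenase of prostaglandin synthesis, was at 433 and 329 CPM against 95.2 and 111. *Vegfa*, the vascular growth factor induced by hypoxia, was at 399.6 and 312 CPM against 82.5 and 112.

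*Slc7a2*, a transporter that brings arginine into macrophages, was at 50.3 and 57.0 CPM in members against 6.41 and 19.0 CPM in other phagocytes. *Odc1*, which turns ornithine into the polyamine putrescine, was at 362 and 449 CPM against 109.7 and 169.7 CPM. No UMI of *Nos2*, the inducible nitric oxide synthase that marks classically activated macrophages, was found in members of either library, where 3 UMIs would be 0.544 and 0.225 CPM. Its level in the other phagocytes is not given here, so its absence is not shown to be particular to the members. Of the 14 arginine and polyamine genes tested, the 2 genes *Slc7a2* and *Odc1* were at least 2-fold higher in both libraries, against 0.703% of all genes. The summed list was nearly level, at 2380 CPM in members and 2156 CPM in other phagocytes of the IgG library and at 2473 and 2462 CPM in the SPP1-nAb library.

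Further leading genes were *Csf3*, a growth factor for neutrophils, at 12.9 and 19.98 CPM against 2.81 and 5.19, *Bcl2a1a*, a survival gene of the BCL2 family, at 171 and 130.4 against 46.2 and 49.6, *Ccl24*, an eosinophil chemokine, at 741 and 1519 against 241 and 581, and *Pdpn*, at 246 and 198 against 68.0 and 76.4. *Serpinb2*, an inhibitor of urokinase, was at 28.1 and 29.1 CPM against 11.1 and 11.2, *S1pr3*, a sphingosine 1-phosphate receptor, at 12.3 and 16.6 against 4.97 and 5.38, *Chst11*, a chondroitin sulfotransferase, at 111 and 116 against 26.9 and 44.5, and *AA467197* at 93.8 and 72.9 against 20.6 and 23.9. *Bcl2a1a* has near-identical copies among which reads can be split, so its level is uncertain. *Csf3* was detected in 26 IgG and 93 SPP1-nAb members, the 10 highest with 67.6% and 38.0% of its UMIs. Without the 1% of members with the most of it, *Serpinb2* was at 12.1 and 9.27 CPM, close to the other phagocytes. *Areg* rested on few cells, since it was detected in 80 IgG and 194 SPP1-nAb members and the 10 highest held 50.4% and 29.8% of its UMIs. At the low end stood *Timd4*, a receptor for apoptotic cells found on resident macrophages, at 0.544 and 0.225 CPM against 7.89 and 2.13, with *Lilra5*, *Tnfrsf17*, *Trim7*, *Dnajc28* and *Gm50020*, all below 1 CPM in members. The genes *C9*, *Bex1*, *Stfa2l1* and *Gm29291* had 0 UMIs in IgG members.

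Several gene groups of the known inflammatory state were above the other phagocytes, though some sums were carried by 1 gene and some groups were nearly level. The CXC chemokine list summed to 23898 and 19369.7 CPM in members, 1.22 and 0.91 above other phagocytes on the log2 scale. Its median gene was only 0.63 and 0.19 above. Its most abundant gene, the neutrophil chemokine *Cxcl2*, was 74.5% of the sum. The hypoxia list was 1.34 and 0.89 above, and *Hif1a*, the transcription factor of the response, was at 789 and 781 CPM against 294 and 377. The glycolysis list was 0.81 and 0.44 above other phagocytes. Of its 16 genes 0 reached 2-fold in both libraries, against 0.703% of all genes, so this count does not set the list apart. The interleukin 1 family did not stand apart as a group, since its median gene was at -0.28 and 0.01, while its sum was 1.30 and 0.82 above. *Il1b*, 73.1% of that sum, was at 3932 and 2955 CPM against 1324 and 1477, with its antagonist *Il1rn* at 723 and 624 CPM against 191 and 283. The prostaglandin and leukotriene list was only 0.09 and 0.11 above, with its median gene at -0.37 and 0.07. Of its tested genes 1 of 7 was at least 2-fold higher in both libraries and 1 of 9 lower, against 0.703% and 4.37% of all genes. The TNF and NF-κB feedback list was 0.44 and 0.27 above, with its median gene at 0.15 and 0.03 and 0 of 12 genes 2-fold higher in both.

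Groups of settled macrophages were on the other side. MHC class II genes, which present antigen, were at -0.87 and -0.49 relative to other phagocytes on the log2 scale, with *H2-Aa* at 1754 and 2277 CPM against 3233 and 3203. The resident macrophage list was at -1.24 and -0.39, and the list for uptake of apoptotic cells at -0.84 and -0.62, where *Gas6*, a bridge between dying cells and phagocytes, was at 29.9 and 50.7 CPM against 157 and 114. Immediate early genes, which dissociation of tissue can induce, were at -0.89 and -0.58, with *Jun* at 186 and 145 CPM against 769.7 and 375.2. Of the lipid-associated phagocyte list, 0 of 13 genes were past 2-fold in either direction in both libraries. Of all genes 0.703% were past it on the higher and 4.37% on the lower side, so this count does not set the list apart.

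Between the libraries, 157 of the 7108 genes (2.21%) were at least 1.5-fold higher in the SPP1-nAb members and 196 (2.76%) at least 1.5-fold lower, and the median log2 ratio was 0.06. Members of the SPP1-nAb library had less of interferon-induced genes and of several monocyte genes, and more of genes known from alternatively activated and resident macrophages.

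The interferon response list was the furthest apart of the 25 gene lists. All of its 10 tested genes were at least 1.5-fold lower in the SPP1-nAb members, against 2.76% of all genes, and the list summed to 2026 CPM in IgG members and 731 CPM in SPP1-nAb members, a log2 ratio of -1.47 (-1.51 to -1.43). *Isg15*, a ubiquitin-like modifier, was at 892 and 326 CPM, *Irf7*, a transcription factor that amplifies type I interferon, at 224 and 72.0 CPM, *Ifit3*, an antiviral RNA-binding protein, at 64.4 and 17.2 CPM, and *Slfn4* at 222 and 56.8 CPM. A UMI of 3 or more of these genes was found in 51.4% of IgG members and 21.6% of SPP1-nAb members, although the latter were deeper. The list was also lower in the SPP1-nAb library in all other phagocytes, with a log2 ratio of -0.78. It was at -0.66 in lipid-handling phagocytes, at -1.27 in cells that passed both gates and at -0.24 in the remaining phagocytes. The remaining phagocytes leave out the interferon-response phagocytes, which were 5.94% of IgG and 2.41% of SPP1-nAb phagocytes. Their ratio is therefore limited by that choice and cannot be set beside the others. *Isg20*, *Ifit2*, *Ifi213*, *Phf11d* and *Phf11a* were among the 10 genes with the lowest ratios, from -1.95 to -1.63, though reads can be split among the close copies of the *Ifit* and *Phf11* families.

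The bases before the starts of *Isg15* and *Ifit3* are shown because the interferon genes moved together. Capitals mark 2 copies of GAAA with any 2 bases between, the core of the interferon-stimulated response element, on either strand, and TGANTCA. The interferon motif was present in 2.98% of the 32851 promoters and in 5 of the 10 genes of the list with a promoter in the table, taking the first listed start. The matches in *Isg15* overlap one another, beginning 78, 72 and 66 bases before the start. *Ifit3* has matches beginning 156 and 122 bases before the start and an AP-1 match at 56.
Isg15, chr4:156200819-156201068, minus strand: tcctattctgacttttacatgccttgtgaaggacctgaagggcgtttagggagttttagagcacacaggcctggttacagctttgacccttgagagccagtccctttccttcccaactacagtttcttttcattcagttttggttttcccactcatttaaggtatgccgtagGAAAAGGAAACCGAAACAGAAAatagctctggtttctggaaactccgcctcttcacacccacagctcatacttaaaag
Ifit3, chr19:34583279-34583528, plus strand: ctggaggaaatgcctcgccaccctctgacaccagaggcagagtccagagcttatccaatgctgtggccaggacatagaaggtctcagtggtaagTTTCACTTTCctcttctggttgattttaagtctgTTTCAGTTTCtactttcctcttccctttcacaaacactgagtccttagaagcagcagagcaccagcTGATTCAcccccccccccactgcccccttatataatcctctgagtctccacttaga

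Monocyte genes were lower in the same direction. The list summed to 2399 and 1621 CPM, a log2 ratio of -0.57, with 4 of 8 tested genes at least 1.5-fold lower and 1 higher, against 2.76% and 2.21% of all genes. All other phagocytes were at -0.25. *Ly6c2*, a surface marker of inflammatory monocytes, was at 478 and 162 CPM in members and at 299 and 157 CPM in the others, and in members *Plac8* was at 608 and 242 CPM and *Ms4a4c* at 431 and 152 CPM. The chemokine receptor *Ccr2*, by which monocytes leave the marrow, was at 554 and 522 CPM, a log2 ratio of -0.09. The gene on the higher side was *Chil3*, at 189 and 416 CPM.

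CC chemokines split within the list. *Ccl2*, *Ccl7* and *Ccl12*, which bind CCR2 and attract monocytes, were at 4858, 4501 and 1345 CPM in IgG members and at 2747, 3011 and 629.5 CPM in SPP1-nAb members. *Ccl3* and *Ccl4*, which attract leukocytes, were at 543 and 1717 CPM and at 322 and 1086 CPM. *Ccl24*, *Ccl8* and *Ccl17* were higher instead, *Ccl24* at 741 and 1519 CPM, *Ccl8* at 556 and 853 CPM and *Ccl17* at 12.2 and 52.4 CPM. In all, 3 of 11 tested CC chemokines were at least 1.5-fold higher and 4 at least 1.5-fold lower, against 2.21% and 2.76% of all genes, and the log2 ratio was -0.28 for the sum and 0.04 for the median gene. *Ccl17* was carried by 13 IgG and 38 SPP1-nAb members, the 10 highest with 95.5% and 83.1% of its UMIs, and its log2 ratio of 2.11 was 0.31, short of 1.5-fold, with at least 3 of the gate genes. Without the 1% of members with the most of it, *Ccl8* was at 381 and 497 CPM, a log2 ratio of 0.38 that is short of 1.5-fold. Of the TNF and NF-κB feedback list 1 of 12 genes passed, *Tnf* at 246 and 137 CPM.

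Genes of alternative activation, a state induced by interleukins 4 and 13, were higher in the SPP1-nAb members, 6 of 10 at least 1.5-fold and 0 lower, against 2.21% of all genes. The list summed to 2468 and 4155 CPM, a log2 ratio of 0.75, and all other phagocytes had a ratio of 0.01. Within the others the ratio was 0.70 in cells that passed both gates, 0.42 in lipid-handling and 0.54 in interferon-response phagocytes and 0.05 in the remaining phagocytes. *Retnla*, a secreted protein of the resistin-like family, was at 372 and 814 CPM, *Mgl2*, a galactose lectin, at 106 and 214 CPM, *Ear2*, an eosinophil-type ribonuclease, at 81.1 and 159 CPM, and the mannose receptor *Mrc1* at 1095 and 1708 CPM. *Retnla* was carried by 88 IgG and 360 SPP1-nAb members, and the 10 highest IgG members held 52.9% of its UMIs.

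The resident macrophage list was at 2999 and 4335 CPM in members, a log2 ratio of 0.53 with 4 of 7 tested genes at least 1.5-fold higher, against 2.21% of all genes, and in all other phagocytes at -0.32. It is not separate from the alternative activation list, since *Mrc1* belongs to both. *Mrc1* was the most abundant gene of each, 38.8% of the resident and 41.8% of the alternative activation sum in members. The median gene had a log2 ratio of 0.61 in the resident and 0.72 in the alternative activation list. *Cd163*, a scavenger receptor for hemoglobin, was at 29.9 CPM in IgG members and 74.5 CPM in SPP1-nAb members, and in the other phagocytes at 211 and 102 CPM. *Selenop*, a selenium carrier, was at 624 and 955 CPM in members and at 2338 and 2002 CPM in the others. Outside the gate the remaining phagocytes were at -0.33, and the lipid-handling and interferon-response phagocytes at 0.22 and 0.36. MHC class II genes had a log2 ratio of 0.29 in members with 0 of 7 genes past 1.5-fold.

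Other genes were named by the size of their ratio. *Slc39a12*, a zinc transporter, had 7 UMIs in 7 IgG members and 274 UMIs in 146 SPP1-nAb members, 1.27 and 20.6 CPM, a log2 ratio of 4.02 (2.96 to 5.35), and in all other phagocytes it was at 4.09 and 16.6 CPM. *Ednrb*, an endothelin receptor, was at 43.4 and 100.8 CPM, *Rnase2a* at 26.9 and 70.8, *Shb* at 6.53 and 19.0, *Stmn1*, a regulator of microtubules, at 10.2 and 24.4, and *Cd209a*, a lectin of dendritic cells, at 5.99 and 14.6. After thinning to 2000 UMIs the direction turned for *Cd209a*, to a log2 ratio of -0.75, and for *Col8a1*, to -0.17. With at least 5 of the gate genes *Cd209a* was at -0.17. *Lox* and *Col8a1*, matrix genes of mesenchymal cells, were in few cells, *Lox* in 15 IgG and 49 SPP1-nAb members and *Col8a1* in 13 and 36. *Ebf2*, lower at 24.5 and 7.51 CPM, was found in 23 members of each library, and without the 1% of members with the most of it, it was at 8.87 and 0.230 CPM. Its direction turned without the 10% and 20% highest doublet scores, to log2 ratios of 0.76 and 0.57.

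Glycolysis, hypoxia and the SPP1 receptors differed little between the libraries in members. The counts that follow stand beside 2.21% of all genes at least 1.5-fold higher and 2.76% lower. The log2 ratio of the summed list was -0.09 for glycolysis with 0 of 16 genes past 1.5-fold, and -0.10 for hypoxia with 0 of 9. In all other phagocytes both were higher in the SPP1-nAb library, at 0.28 and 0.34. *Cd44*, the hyaluronan and SPP1 receptor, was at 1065 and 1246 CPM in members and the integrin subunit *Itgav* at 215 and 249 CPM, and 0 of 7 receptor genes passed 1.5-fold. *Hmox1*, the heme oxygenase, was at 327 and 611 CPM, and *Gclm*, of glutathione synthesis, at 48.6 and 76.0 CPM, the 2 of 9 oxidative stress genes that passed. Matrix and protease genes had 3 of 16 lower, *Plau* at 102 and 56.6 CPM, *Mmp8* at 24.3 and 13.6 and *Mmp13* at 22.3 and 11.8, while *Fn1*, fibronectin, was at 1159 and 1264 CPM. Of the growth factor and activin lists 0 of 10 and 0 of 6 genes passed, and of the prostaglandin list 2 of 7 were higher, while its sum had a log2 ratio of -0.16. Scavenger genes had 2 of 12 lower, uptake of apoptotic cells 1 of 8 higher and the cell cycle list 2 of 4 higher. *Nrg1*, a ligand of Schwann cell ErbB receptors named here after its values were seen, was at 214 and 442 CPM in members and at 86.2 and 209.6 CPM in all other phagocytes.

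**Figure D5:**
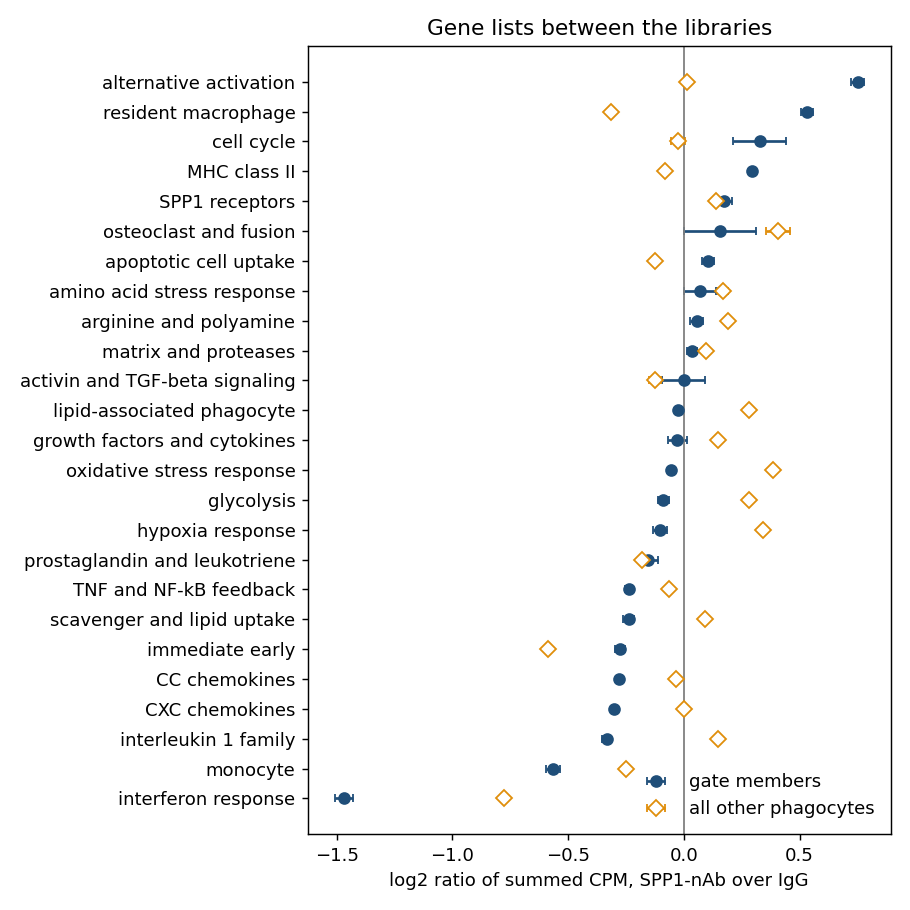
Log2 ratio (SPP1-nAb over IgG) of the summed CPM of 25 gene lists in members (filled circles) and in all other phagocytes (open diamonds), with exact 95% intervals that cover counting error only. Interferon response is lowest in both, at -1.47 and -0.78, and the alternative activation and resident macrophage lists are highest in members, at 0.75 and 0.53, where the other phagocytes are at 0.01 and -0.32. These lists share *Mrc1*, the most abundant gene of each.

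Markers of other cells also differed between the libraries. In members the neutrophil list was at 71.0 and 246 CPM, the erythroid list at 17.8 and 306 CPM with *Hbb-bs* as its most abundant gene, and the mesenchymal list at 977 and 719.6 CPM. Without the 10% and 20% highest doublet scores the log2 ratio of the mesenchymal list turned from -0.44 to 1.20 and 1.30. Single barcodes held much of the erythroid and neutrophil sums. In the SPP1-nAb members 1 barcode held 1480 of 2328 *Hbb-bs* UMIs and the 10 highest 97.0%, and 1 held 740 of 949 *S100a9* UMIs. The free-RNA part of the members' UMIs, taken as the median over 5 lists of their level in members against all kept barcodes, was 9.45% in the IgG library and 19.8% in the SPP1-nAb library. When that part was subtracted, the log2 ratio was -1.55 for the interferon list, 0.84 for alternative activation, 0.61 for resident macrophage genes and -0.46 for *Spp1*. The part of these cells in the results was not tested further.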

How the data were processed

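The authors deposited UMI counts per gene and barcode for 2 libraries, whole numbers without normalization, as made by Cell Ranger, with version 8.0.0 in the submitters' processing notes and 9.0.1 in the file headers. The notes name GRCm39, and the study's methods also GRCm38. The IgG library held 97607674 UMIs on 23779 barcodes and the SPP1-nAb library 127719916 on 25069. Of the 8 genes of the gate 1 is not reported here, nor are the alternatives that left it out. The members and gene lists were chosen with earlier results of these data known. Counts were summed over cells of a group and scaled to 1000000 UMIs (CPM). Genes needed 200 UMIs in members and 20 cells. Genes lower than in other phagocytes were sought among 12070, which included genes below these counts in members. Folds of 1.5 between libraries and 2 against other phagocytes were used.

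Genes named are the other gate genes, *Spp1*, *Gfp*, genes of the lists and, by size, the 10 largest ratios per direction between libraries and the 15 highest and 10 lowest against all other phagocytes by the smaller of both libraries' ratios, without mitochondrial, ribosomal, hemoglobin, immunoglobulin, sex and gate genes. Phagocytes passed the macrophage genes of the gate. Lipid-handling phagocytes had 4 of 6 lipid-handling genes and interferon-response phagocytes 4 of 5 interferon genes, and T and NK and endothelial barcodes had 2 genes of their type and were not phagocytes.

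No doublets were removed. As an alternative, a barcode was scored by its simulated doublets among 20 neighbors in 30 components of 2000 genes, and the 10% or 20% highest were left out. Thinning drew UMIs without replacement with 1 fixed seed. The calculation of ratios was checked on simulated data for 7104 genes, where 95.6% of planted ratios lay in their intervals and 100% of 200 genes changed 2-fold passed 1.5-fold, as did 0.101% of unchanged genes. The simulated counts were Poisson draws, the model that the intervals assume, without spread between cells, mice or libraries. The check therefore covers the calculation only and does not bear on how many of the genes past 1.5-fold differ between conditions. Coordinates are from GENCODE M39, which held 31674 of 32287 identifiers, and of 364 listed genes 363 were in the files. Python 3.11.15, numpy 2.4.6, scipy 1.17.1, pandas 2.3.3, scikit-learn 1.9.0 and matplotlib 3.10.9 were used.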

Additional observations from a re-analysis of the deposited data

Results flagged for a closer look

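Several log2 ratios between the libraries (SPP1-nAb over IgG) had one sign in the members and the opposite sign in all other phagocytes. With 1 library per condition these differences were not tested. *Spp1* was at -0.48 in members and 0.75 in the others, the resident macrophage list at 0.53 and -0.32, *Cd163* at 1.32 and -1.05, and *Ednrb* at 1.22 and -0.40. The others are a mixture, and their subgroups did not all oppose the members. *Spp1* was lower or nearly level in each subgroup described above but the remaining phagocytes. The resident macrophage list was lower in the remaining phagocytes but higher in lipid-handling and interferon-response phagocytes. Whether the shares of the subgroups bear on these ratios was not tested. *Cd209a* was at 1.29 and -0.77, on 17 IgG and 52 SPP1-nAb members, but in members it was at -0.75 after thinning to 2000 UMIs and -0.17 with at least 5 of the gate genes. The dendritic list was at 1.49 and -0.58, and in members at 0.42 with at least 5 of the gate genes, 0.83 after thinning and 3.06 with free RNA removed. Lists at low levels in members did the same, the Schwann list at 1.10 and -0.22, the mural list at 0.70 and -0.40 and the erythroid list at 4.11 and -1.47, where 1 SPP1-nAb barcode held 1480 of 2328 *Hbb-bs* UMIs. In members these lists turned negative without the 10% and 20% highest doublet scores, the Schwann list to -0.13 and -0.65, the mural list to -0.29 and -0.16 and the erythroid list to -0.72 and -0.57.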

How the results depend on the processing

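No paired analysis was possible because each condition had 1 library, and no replicate could be left out. The share of members stayed larger in the SPP1-nAb library under all 17 alternatives given here, and *Spp1* in members stayed lower under all 22. As a ratio of the shares it was 1.72, and 1.34 to 1.99 under those 17. In percentage points, which scale with how strict the gate is, the difference was 8.87 percentage points with at least 3 of the 8 genes, 2.01 with 5, 7.99 without exclusion genes, 2.57 and 2.88 after thinning to 2000 and 4000 UMIs and 3.57 without the 20% highest doublet scores. It was 3.31, 3.87, 2.19, 3.38 and 2.94 with *Cxcl3*, *Olr1*, *Thbs1*, *Hilpda* or *Flrt3* left out of the gate.

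Other sizes moved, and the cause was not tested. The log2 ratio of *Spp1* in members was -0.24 with at least 5 genes, -0.039 without exclusion genes, -0.31 with 3 macrophage genes, -0.089 and -0.22 after thinning to 2000 and 4000 UMIs and -0.57 without the 20% highest doublet scores. It was -0.40, -0.43, -0.36, -0.40 and -0.36 without *Cxcl3*, *Il1a*, *Thbs1*, *Hilpda* or *Flrt3*. It was -0.54 without the 1% of members with the most *Spp1*, an alternative chosen after seeing the data.

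Against other phagocytes, the log2 ratio of *Spp1* in the IgG and SPP1-nAb libraries was 1.69 and 0.47 under 5% mitochondrial UMIs, 1.41 and 0.052 with at least 3 genes, 1.68 and 0.82 with 5, 2.37 and 1.84 without exclusion genes, 1.54 and 0.41 with 3 macrophage genes and 2.58 and 1.84 after thinning to 2000 UMIs. It was 1.80 and 0.66 without the 10% highest doublet scores, 1.91 and 0.69 without the 20%, 1.79 and 0.57 with free RNA removed and 2.16 and 0.92 as a mean over cells. It was 1.77 and 0.77 without *Thbs1*, 1.60 and 0.53 without *Hilpda* and 1.78 and 0.73 without *Flrt3*. In the SPP1-nAb library it was 0.66, 0.57 and 0.55 without *Cxcl3*, *Il1a* or *Olr1* and 1.15 after thinning to 4000 UMIs.

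Genes past 1.5-fold higher and lower were 50 and 66 after thinning to 2000 UMIs, 508 and 493 with at least 50 UMIs and 36 and 71 with 1000, and 27 and 53 passed a fold of 2. With free RNA removed 300 were lower. The mesenchymal list, at -0.44, was at 0.26 with at least 5 genes and 1.20 and 1.30 without the 10% and 20% highest doublet scores. Among ratios past 1.5-fold, signs turned for the neutrophil list at -0.073 without the 20% highest doublet scores, the T and NK list at -0.54 with at least 3 genes, and the Schwann list at -0.13 and -0.65 without the 10% and 20% highest. The mural list was at -0.039 with 5 genes, -0.58 after thinning to 2000 UMIs and -0.29 and -0.16 without the 10% and 20% highest, and the erythroid list at -0.28, -0.72 and -0.57 under the last 3. *Cd209a* was at -0.17 with 5 genes and -0.75 after thinning, *Col8a1* at -0.17 after thinning, and *Ebf2* at 0.76 and 0.57 without the 10% and 20% highest. The 10% highest doublet scores held 18.6% of IgG and 20.1% of SPP1-nAb members, against 14.2% and 11.99% of the other phagocytes.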
